A study of Mus musculus with 28 samples.

Results

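The comparison described here set liver nuclear RNA of male mice given TCPOBOP for 8 weeks in a high volume of corn oil against that of males given TCPOBOP for 8 weeks in a low volume of corn oil. Genes with at least 1 FPKM (fragments per kilobase, scaled to library size, the authors' 1 value per group) in either group entered it, which held for 10762 of the 24197 genes of the table. The 7 mice of both groups were among 28 in the study, each giving 1 library from 1 liver, and all were outbred CD-1 mice. The high-oil group (3 mice) received TCPOBOP at 3 mg/kg in 20 µl of oil per g body weight with 2% DMSO, then weekly doses of 1 mg/kg from day 7 in the same volume with 0.67% DMSO. The low-oil group (4 mice) received 3 mg/kg in 4 µl of oil per g with 10% DMSO, then further doses of 1.5 mg/kg. The labels once write the low volume per kg, but the stated stock and dilution give the stated dose only at the volume per g. Both groups were 15 to 16 weeks old, and livers were taken in the late morning. The sample titles put the high-oil libraries in set G184 and the low-oil libraries in set G186. Oil volume, DMSO share, the later TCPOBOP dose and the library set therefore changed together between the groups and cannot be told apart.

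Another 4 male groups served as points of reference. The high-oil vehicle group had 3 mice of set G184, 15 to 16 weeks old. It received 20 µl of oil per g with 2% and then 0.67% DMSO. The low-oil vehicle group had 4 mice of set G186, treated for 4 to 8 weeks with 4 µl per g and 10% DMSO. Of these, 2 were aged 11 to 12 weeks and the others 15 to 16 weeks. Both vehicle groups thus differed in oil, DMSO share and set in the same way without TCPOBOP, and also in time and age. The 2-week TCPOBOP group (4 mice, 3 mg/kg) and the 2-week vehicle group (3 mice) were aged 9 to 10 weeks and belonged to set G184. They received 1 injection in the low volume of oil with 10% DMSO. They share the set with the high-oil groups, and the oil volume and DMSO share with the low-oil groups, but differ from both in time and age. The table gives no value of a single mouse, so every FPKM is the authors' pooled value without an error, and the spread between mice enters only through the authors' deposited adjusted p.

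TCPOBOP activates CAR (the constitutive androstane receptor, product of Nr1i3), a nuclear receptor that induces drug-metabolising enzymes in hepatocytes. Corn oil is the solvent that carries this fat-soluble compound, and it also delivers triglyceride, largely of linoleic and oleic acid, into the peritoneum. The liver secretes acute phase proteins in response to inflammatory cytokines such as interleukin 6, and hepatocytes keep a large endoplasmic reticulum (ER) whose chaperones rise when protein folding is strained. Polyadenylated RNA of isolated nuclei includes transcripts that have not yet reached the cytoplasm.

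At a deposited adjusted p under 0.05, 818 of the 10762 genes (7.6%) were higher and 682 (6.34%) were lower in the high-oil TCPOBOP group in the authors' deposited table. A log2 ratio of FPKM + 0.1 of at least 1 in size was reached by 98 of the genes called higher (0.911% of those tested) and by 299 of those called lower (2.78%). Size and scaling matter for that split, because the median log2 ratio over all tested genes was -0.12, whereas the median of the log2 fold changes in the authors' deposited table was 0.03. By fold change in the authors' deposited table the split was 199 higher and 230 lower, and with ratios centred on the median of the tested genes it was 167 and 210. All log2 ratios below are high over low corn oil on the scale of FPKM + 0.1, not centred, and are to be read against the median of -0.12. Counts of called list members are to be read against the shares of 7.6% higher and 6.34% lower. At the limits of the selection, the lowest gene inside had 1.00051 FPKM in its higher group and the highest outside had 0.999436 FPKM. Of the 13435 genes outside, 6011 were listed at 0 in both groups and 292 had an adjusted p under 0.05 in the authors' deposited table.

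Most genes called between the TCPOBOP groups had a ratio of the same sign between the vehicle groups, which consist of other mice. The vehicle ratio was above 0 for 755 of the 818 genes called higher (92.3%) and below 0 for 649 of the 682 called lower (95.2%). Over all tested genes the signs matched for 7592 (70.5%). The median vehicle ratio was 0.45 among genes called higher, whose median TCPOBOP ratio was 0.66, and -0.50 among genes called lower, whose median TCPOBOP ratio was -0.95. Across the 10762 genes the correlation of both ratios was 0.60 (Pearson) and 0.63 (Spearman). Genes are not independent replicates, and both ratios share the set codes G184 and G186 and the difference in DMSO share.

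**Figure D1:**
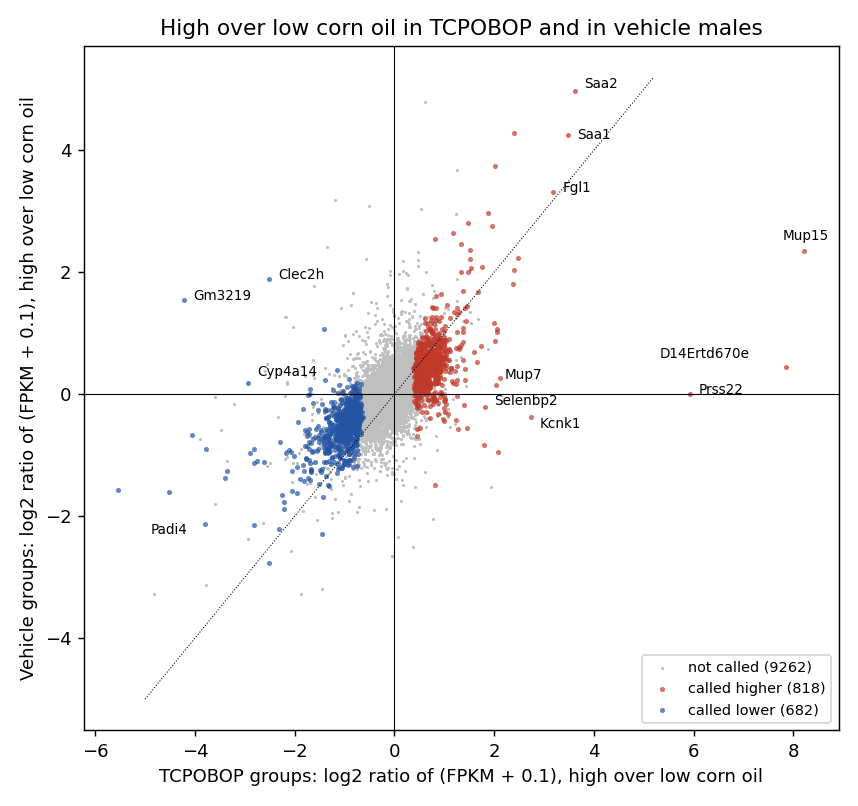
Log2 ratio of FPKM + 0.1, high over low corn oil, in the TCPOBOP groups (x axis) and in the vehicle groups (y axis). Each point is 1 of the 10762 tested genes, coloured by its call between the TCPOBOP groups in the authors' deposited table, and the dotted line marks equal ratios; of the 818 genes called higher 755 lie above 0 on the y axis, and names are given for a few genes only.

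The order of the 6 male groups gave a second description of each gene. Both high-oil groups stood above all 4 low-oil male groups for 641 tested genes (5.96%) and below them for 1087 (10.1%). All 4 groups of set G184 stood above both groups of set G186 for 922 genes (8.57%) and below them for 1671 (15.5%). Among the genes called higher, 155 followed the first order and 334 the order by set, and 61 followed both. Among the genes called lower, 295 stood below by oil and 431 below by set, with 183 in both. These orders use the levels of the compared groups themselves, so they describe where the other male groups lay and are no further test.

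Acute phase genes, many of which encode plasma proteins of inflammation, were higher in the high-oil TCPOBOP group. Of 25 listed, all passed the limit of 1 FPKM, 16 were called higher and none lower, with a median log2 ratio of 0.79 in the TCPOBOP groups and 0.89 in the vehicle groups. Saa1, which encodes serum amyloid A, an apolipoprotein of high-density lipoprotein during inflammation, stood at 438 FPKM in the high-oil TCPOBOP group and at 39.3 FPKM in the low-oil TCPOBOP group. Its vehicle levels were 359 and 18.8 FPKM in high and low oil, and its 2-week levels were 65.8 FPKM with TCPOBOP and 20.1 FPKM with vehicle. Both high-oil groups were thus far above the other 4 male groups, with or without TCPOBOP. The log2 ratio was 3.48 (adjusted p = 7.47e-20 in the authors' deposited table). Saa2, its neighbour of near-identical sequence, had 251 and 20.4 FPKM in the TCPOBOP groups and 193 and 6.09 FPKM in the vehicle groups (adjusted p = 1.06e-15 in the authors' deposited table). Reads of Saa1 and Saa2 may be shared between the pair, so each single value is uncertain.

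The same order held for 11 of the 25 acute phase genes, with both high-oil groups above all 4 low-oil male groups, while 4 followed the order by set, all 4 of them also in the order by oil. Saa3, an amyloid A gene made by macrophages and fat cells as well as liver, had 19.6 and 5.00 FPKM in high and low oil with TCPOBOP and 15.8 and 2.26 FPKM with vehicle. Orm1, which encodes the plasma carrier orosomucoid, had 531 and 194 FPKM with TCPOBOP and 388 and 143 FPKM with vehicle (adjusted p = 1.78e-10 in the authors' deposited table). Apcs, which encodes serum amyloid P, an opsonin of the pentraxin family, had 188 and 65.4 FPKM with TCPOBOP and 111 and 23.9 FPKM with vehicle. Its 2-week TCPOBOP level of 110 FPKM lay just under the high-oil vehicle level. Haptoglobin (Hp), which binds free haemoglobin, had 2189 and 952 FPKM with TCPOBOP and 899 and 355 FPKM with vehicle. It did not follow the order by oil, because the 2-week TCPOBOP group stood at 1230 FPKM, above the high-oil vehicle group. Not every acute phase gene differed. Socs3, which encodes a feedback inhibitor of interleukin 6 signalling and belongs to this list and to that of growth hormone signalling, had 6.56 and 6.44 FPKM with TCPOBOP and 11.4 and 5.63 FPKM with vehicle. Among the metallothioneins and glucocorticoid-responsive genes, none was called higher and 1 of 9 was called lower. It was Sgk1, a stress-regulated kinase, at 3.58 and 6.25 FPKM with TCPOBOP (adjusted p = 0.0434 in the authors' deposited table).

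The promoters of Saa1 and Saa2 are shown because these genes had the highest ratios of the acute phase list. They come from RefSeq on GRCm38.p6, Saa1 at chr7:46742931-46743230 on the minus strand and Saa2 at chr7:46751583-46751882 on the plus strand, each with 250 bases before the start and 50 after it. Capitals mark a match to TTNNGCAA, a short motif of the type bound by C/EBP factors, on either strand.
Saa1: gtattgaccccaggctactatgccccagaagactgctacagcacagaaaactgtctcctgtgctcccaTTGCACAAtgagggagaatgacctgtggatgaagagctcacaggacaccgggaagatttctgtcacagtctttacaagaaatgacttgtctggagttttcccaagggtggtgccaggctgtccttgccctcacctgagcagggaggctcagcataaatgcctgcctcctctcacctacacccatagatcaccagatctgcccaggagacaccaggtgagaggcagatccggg
Saa2: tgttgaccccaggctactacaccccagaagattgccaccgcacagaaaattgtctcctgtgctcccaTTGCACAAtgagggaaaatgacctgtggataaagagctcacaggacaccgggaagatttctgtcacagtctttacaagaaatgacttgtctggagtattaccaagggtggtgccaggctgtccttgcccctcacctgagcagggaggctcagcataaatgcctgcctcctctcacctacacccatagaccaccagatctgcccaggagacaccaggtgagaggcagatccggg
The match begins 182 bases before the start of Saa1 and 183 before that of Saa2, and its letters are the same in both. Among all 32851 RefSeq promoters, which belong to 27025 genes, 10.8% held such a match. Counted per gene rather than per promoter, it was found in 9 of the 14 acute phase genes called higher that have a promoter entry. It was found in 3 of the 7 not called. The share per promoter and the counts per gene are not measured alike. A match describes letters in the window and shows no binding.

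Fgl1, a liver-secreted protein of the fibrinogen family that is not on the acute phase list, had the second smallest p of the genes named. It stood at 139 and 15.1 FPKM in high and low oil with TCPOBOP and at 130 and 12.9 FPKM with vehicle, and the 2-week groups lay between at 33.5 FPKM with TCPOBOP and 39.9 FPKM with vehicle. Its log2 ratio was 3.19 (adjusted p = 5.78e-21 in the authors' deposited table). Socs2, which encodes a feedback inhibitor of growth hormone signalling, had 14.6 and 4.21 FPKM with TCPOBOP and 14.9 and 3.44 FPKM with vehicle, with 6.23 and 6.78 FPKM in the 2-week groups (adjusted p = 0.000117 in the authors' deposited table). For both genes the 2 high-oil groups had levels close to each other.

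ER chaperone genes were higher under high oil as well. Of 18 genes listed for ER stress and the amino acid response, 16 were tested, 9 were called higher and none lower, with a median ratio of 0.57 with TCPOBOP and 0.72 with vehicle. The order by oil held for 10 of the 16. The 9 called genes all encode proteins of the ER folding machinery or its secreted factors. Creld2, an ER-resident stress protein, had 29.3 and 12.3 FPKM with TCPOBOP, 73.1 and 27.3 FPKM with vehicle, and 24.0 and 14.2 FPKM in the 2-week TCPOBOP and vehicle groups (adjusted p = 2.42e-05 in the authors' deposited table). Both high-oil groups stood above all 4 low-oil male groups. Manf, a secreted factor of the stressed ER, had 40.1 and 18.4 FPKM with TCPOBOP and 32.3 and 19.6 FPKM with vehicle. Hspa5, which encodes the chaperone BiP, had 166 and 97.9 FPKM with TCPOBOP, 194 and 117 FPKM with vehicle, and 155 and 115 FPKM at 2 weeks (adjusted p = 0.00688 in the authors' deposited table). The 2-week TCPOBOP level of Hspa5 was therefore close to that of the high-oil TCPOBOP group. Genes of the amino acid and PERK branch were not called. Trib3 had 3.48 and 5.28 FPKM and Sesn2 0.830 and 1.34 FPKM with TCPOBOP, and Atf4, which encodes the transcription factor of that branch, had 52.2 and 50.6 FPKM.

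The promoters of 3 called ER chaperone genes are shown because they share a long motif. They are RefSeq windows on GRCm38.p6 of 250 bases before and 50 after the start, Hspa5 at chr2:34771840-34772139 on the plus strand, Hsp90b1 at chr10:86705395-86705694 on the minus strand and Creld2 at chr15:88819396-88819695 on the plus strand. Capitals mark matches to the ER stress element, CCAAT followed by 9 bases of any kind and then CCACG, on either strand.
Hspa5: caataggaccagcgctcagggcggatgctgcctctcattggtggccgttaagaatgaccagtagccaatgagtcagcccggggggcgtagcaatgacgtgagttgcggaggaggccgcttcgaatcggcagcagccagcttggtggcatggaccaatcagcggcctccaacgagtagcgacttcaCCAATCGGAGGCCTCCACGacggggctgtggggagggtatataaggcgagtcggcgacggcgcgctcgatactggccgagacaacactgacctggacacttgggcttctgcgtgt
Hsp90b1: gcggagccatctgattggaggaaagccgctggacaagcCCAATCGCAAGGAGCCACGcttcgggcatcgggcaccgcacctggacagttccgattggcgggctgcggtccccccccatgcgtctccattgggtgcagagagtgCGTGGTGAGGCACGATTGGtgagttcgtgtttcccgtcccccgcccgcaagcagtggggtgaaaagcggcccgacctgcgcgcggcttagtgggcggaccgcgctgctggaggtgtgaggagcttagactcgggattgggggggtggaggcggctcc
Creld2: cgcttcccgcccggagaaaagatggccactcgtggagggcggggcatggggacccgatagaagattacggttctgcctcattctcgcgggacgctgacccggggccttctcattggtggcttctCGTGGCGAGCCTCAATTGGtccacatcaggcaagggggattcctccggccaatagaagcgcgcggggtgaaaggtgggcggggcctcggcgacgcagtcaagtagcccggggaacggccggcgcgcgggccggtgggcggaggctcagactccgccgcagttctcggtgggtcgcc
The element begins 65 bases before the start of Hspa5, 212 and 107 before that of Hsp90b1, and 126 before that of Creld2. Only 39 of the 32851 promoters (0.119%) held it, a share per promoter. Counted per gene, it was found in 5 of the 8 called genes of the list with a promoter entry, and in none of the 7 not called. Besides those shown, the 5 included Pdia6 and Calr. Of all tested genes, 15 had the element in a promoter, and 7 of these were called higher and 1 lower. Those 7 include the 5 of the list, so they are no separate count. The called list members were all of the ER folding machinery or its secreted factors, so call and kind of gene overlap. The promoters were picked because they share the element, so these counts are a description and no test. A match shows no binding. The one called lower was Acacb, which encodes a mitochondrial acetyl-CoA carboxylase, at a log2 ratio of -0.90. Hsp90b1, the ER paralogue of HSP90, had 179 and 120 FPKM with TCPOBOP and 300 and 158 FPKM with vehicle.

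**Figure D2:**
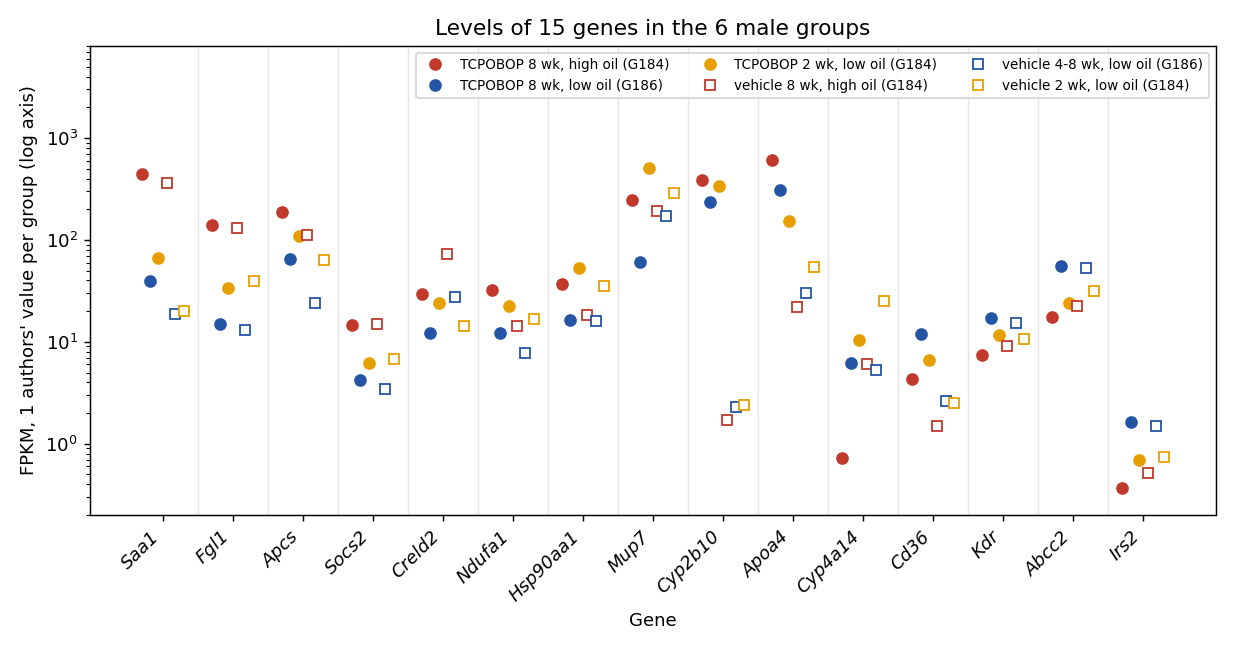
FPKM of 15 genes (x axis) in the 6 male groups on a log axis, 1 pooled value per group without error; filled circles are TCPOBOP groups and open squares are vehicle groups, red for high oil, blue for the low-oil groups of set G186 and orange for the 2-week low-oil groups of set G184. For Saa1, Fgl1 and Socs2 both red symbols lie above the other 4, for Ndufa1 the orange symbols lie above the blue ones of the same treatment, and for Cyp4a14 the TCPOBOP high-oil value of 0.727 FPKM lies below all others.

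Genes of mitochondrial respiration showed another order of the groups. Of 25 listed subunits of the respiratory chain, 17 were called higher and none lower, with a median ratio of 0.73 with TCPOBOP and 0.55 with vehicle. None of the 25 followed the order by oil, while 11 followed the order by set. Ndufa1, a subunit of complex I, had 32.1 and 12.3 FPKM in high and low oil with TCPOBOP, 14.3 and 7.84 FPKM with vehicle, and 22.6 and 16.8 FPKM in the 2-week TCPOBOP and vehicle groups (adjusted p = 2.60e-06 in the authors' deposited table). Cox4i1, a subunit of cytochrome c oxidase, had 155 and 82.3 FPKM with TCPOBOP, 93.2 and 58.0 FPKM with vehicle, and 152 and 116 FPKM at 2 weeks (adjusted p = 0.000473 in the authors' deposited table). The 2-week low-oil TCPOBOP group of set G184 thus had nearly the level of the high-oil group. Cytosolic ribosomal protein genes, all 25 with a ratio above 0, had 11 called higher and none lower at a median of 0.51, against 0.41 with vehicle. Rpl41, a very small protein of the large subunit, had 205 and 115 FPKM with TCPOBOP and 122 and 86.1 FPKM with vehicle.

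Heat shock and chaperone genes of the cytosol and the mitochondria were higher in the high-oil TCPOBOP group. Of 16 listed, 8 were called higher and none lower, at a median of 0.61 with TCPOBOP and 0.31 with vehicle, and 8 followed the order by set but 1 the order by oil. Hsp90aa1, the stress-inducible HSP90, had 36.6 and 16.4 FPKM with TCPOBOP and 18.5 and 15.9 FPKM with vehicle, and 53.2 and 35.2 FPKM in the 2-week groups (adjusted p = 1.53e-06 in the authors' deposited table). Both 2-week groups thus stood above the low-oil groups of set G186, from which they differ in set, time and age. Hsph1, a nucleotide exchange factor of HSP70, had 8.34 and 3.44 FPKM with TCPOBOP.

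Markers of hepatocytes checked the tissue, and each of the 14 in the table passed 1 FPKM, with 7 called higher and none lower at a median of 0.64 (0.60 with vehicle). The order by set held for 8 of the 14. Their summed level was 24498 FPKM in the high-oil and 15931 FPKM in the low-oil TCPOBOP group, 16931 and 10025 FPKM in the vehicle groups, and 20905 and 24920 FPKM at 2 weeks. Serpina1a, which encodes the protease inhibitor alpha-1-antitrypsin and has near-identical copies, had 1038 and 440 FPKM with TCPOBOP and 698 and 413 FPKM with vehicle (adjusted p = 6.57e-10 in the authors' deposited table). Albumin (Alb) was not called, at 4881 and 4121 FPKM with TCPOBOP. In bulk RNA, fewer cells of a type and less RNA per cell cannot be told apart.

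Many targets of CAR stood far above their vehicle levels in both TCPOBOP groups, and several had higher levels with high oil. The later TCPOBOP dose per injection was lower in the high-oil group, and oil volume, DMSO share and library set differed as well. The part of each in these levels was not tested. Of 24 CAR-responsive phase I enzymes tested, 6 were called higher and 1 lower, at a median of 0.32 against -0.04 in the vehicle groups. Cyp2b10, the prototypical CAR target, stood at 389 and 238 FPKM in high and low oil with TCPOBOP, at 335 FPKM after 2 weeks, and at 1.72 to 2.41 FPKM in the 3 male vehicle groups (adjusted p = 0.000862 in the authors' deposited table). The 2-week low-oil value lay nearer to the high-oil value. Ces2a, a carboxylesterase, had 580 and 294 FPKM with TCPOBOP, 438 FPKM after 2 weeks, and 60.9 to 101 FPKM with vehicle (adjusted p = 0.000362 in the authors' deposited table). Cyp3a11, the main drug-oxidising enzyme of the CYP3A family in mouse liver, had 2360 and 1482 FPKM, and 2189 FPKM after 2 weeks. Cyp3a25 was the member called lower, at 344 and 622 FPKM with TCPOBOP and 442 and 761 FPKM with vehicle. Nr1i3 itself had 25.2 and 31.0 FPKM with TCPOBOP and was not called (adjusted p = 1 in the authors' deposited table), with 115 and 171 FPKM in the high-oil and low-oil vehicle groups.

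The remaining xenobiotic genes had called members in both directions. Over all tested genes 7.6% were called higher and 6.34% lower, and the conjugation enzymes lay near or below those shares. Of 31 conjugation enzymes 1 was called higher and 2 lower, with Gstt1, a glutathione transferase, at 97.3 and 59.9 FPKM and Gstt2, of the same class, at 30.7 and 58.2 FPKM with TCPOBOP. Of 16 drug and bile transporters tested, 2 were called higher and 2 lower. Abcc2, which exports bilirubin conjugates into bile, had 17.4 and 55.8 FPKM with TCPOBOP, 22.4 and 52.6 FPKM with vehicle, and 24.2 and 31.3 FPKM at 2 weeks (adjusted p = 2.40e-09 in the authors' deposited table). Both low-oil groups of set G186 were the highest, and both high-oil groups the lowest. Among genes that TCPOBOP induced at least 4-fold in the 2-week males, libraries outside this comparison, 18 of 92 were called higher and 2 lower, at a median of 0.29 against -0.09 with vehicle. Among 100 genes that it repressed at least 2-fold there, 7 were called higher and 9 lower, at a median of -0.15. The counts of the repressed genes lay near the shares over all tested genes. For the induced genes, the 18 of 92 called higher lay above the share of 7.6%, and the 2 called lower lay below that of 6.34%.

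Genes of lipid metabolism differed in single members rather than as whole lists, except for cholesterol synthesis. Of 22 tested cholesterol genes 9 were called higher and 1 lower, at a median of 0.49 with TCPOBOP and 0.43 with vehicle, and 7 followed the order by oil. Fdps, which makes farnesyl diphosphate, had 129 and 64.8 FPKM with TCPOBOP, 96.1 and 51.9 FPKM with vehicle, and 56.7 and 53.7 FPKM at 2 weeks (adjusted p = 2.23e-05 in the authors' deposited table). All 4 low-oil male groups thus stood close together and both high-oil groups above them. The member called lower, Stard4, a cytosolic sterol carrier, had 3.53 and 8.43 FPKM with TCPOBOP. Insig1, a sensor that restrains the pathway, had 112 and 113 FPKM.

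Of 21 tested genes of fatty acid and triglyceride synthesis 2 were called higher and 3 lower (median -0.39), and of 21 genes of fatty acid oxidation 2 were called lower and none higher (median -0.29). The median of the oxidation genes was 0.0045 among members with at least 5 FPKM, so no direction is given for that list. Gpam, which performs the first step of triglyceride synthesis, had 8.27 and 27.0 FPKM with TCPOBOP, 17.5 and 38.2 FPKM with vehicle, and 14.0 and 15.3 FPKM at 2 weeks (adjusted p = 1.95e-10 in the authors' deposited table). Cyp4a14, a fatty acid hydroxylase and target of PPARα, had 0.727 and 6.22 FPKM with TCPOBOP, 6.08 and 5.34 FPKM with vehicle, and 10.5 and 25.0 FPKM at 2 weeks (adjusted p = 0.00181 in the authors' deposited table). The high-oil TCPOBOP group stood alone below the other 5 male groups for this gene. Cd36, a fatty acid transporter, had 4.36 and 12.0 FPKM with TCPOBOP against 1.51 and 2.60 FPKM with vehicle. Apoa4, an apolipoprotein induced in fatty liver of mice, had 614 and 310 FPKM with TCPOBOP, 153 FPKM after 2 weeks of TCPOBOP, and 22.0 to 53.7 FPKM in the male vehicle groups (adjusted p = 0.0147 in the authors' deposited table). Of 12 bile acid synthesis genes 2 were called higher. For the lists of this paragraph, the shares over all tested genes were 7.6% called higher and 6.34% lower. Cyp2c70, which makes muricholic acids in mice, had 257 and 118 FPKM with TCPOBOP and 181 and 76.2 FPKM with vehicle.

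Of 19 genes of glucose and glycogen metabolism 1 was called higher and 3 lower, and 7 stood below in the order by oil. The shares over all tested genes were 7.6% higher, 6.34% lower and 10.1% below in that order. Irs2, the insulin receptor substrate whose transcription insulin represses, had 0.368 and 1.63 FPKM with TCPOBOP, 0.511 and 1.50 FPKM with vehicle, and 0.686 and 0.744 FPKM at 2 weeks (adjusted p = 1.03e-10 in the authors' deposited table). Both high-oil groups were lowest, the 2-week groups next, and both low-oil groups of set G186 highest. Ppp1r3g, a glycogen-targeting phosphatase subunit, had 1.00 and 3.60 FPKM with TCPOBOP. Igfbp2, a binding protein for insulin-like growth factors, was called higher at 108 and 61.7 FPKM.

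Sex-biased genes of liver, which follow the secretion pattern of growth hormone, had 5 of 24 male-biased members called higher and none lower, at a median of 0.41 against -0.09 with vehicle. Mup7, a major urinary protein gene, had 248 and 60.4 FPKM with TCPOBOP, 190 and 171 FPKM with vehicle, and 509 and 285 FPKM at 2 weeks (adjusted p = 1.10e-07 in the authors' deposited table). For this gene the low-oil TCPOBOP group of set G186 was the lowest of all 6. Elovl3, a fatty acid elongase, had 39.6 and 14.9 FPKM with TCPOBOP and 40.4 and 34.4 FPKM with vehicle, and again the low-oil TCPOBOP group was lowest. Mup genes share long stretches of sequence, so each single Mup value is uncertain. Of 16 female-biased genes tested 1 was called in each direction, Lifr higher and Cyp4a14 lower. The median of the female-biased genes was -0.46, but 0.29 among members with at least 5 FPKM, so no direction is given for that list. Pericentral genes had 5 of 11 tested members called higher and none lower, at a median of 0.51 against -0.08 with vehicle. With no minimum FPKM, the TCPOBOP median of the pericentral list was 0.26. Glul, the glutamine synthetase of the cells around the central vein, had 24.5 and 15.3 FPKM with TCPOBOP and 30.1 and 31.9 FPKM with vehicle (adjusted p = 0.00354 in the authors' deposited table). Periportal genes had none called higher and 1 of 18 lower, Etnppl, an ammonia-releasing lyase, at 1.86 and 5.25 FPKM.

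**Figure D3:**
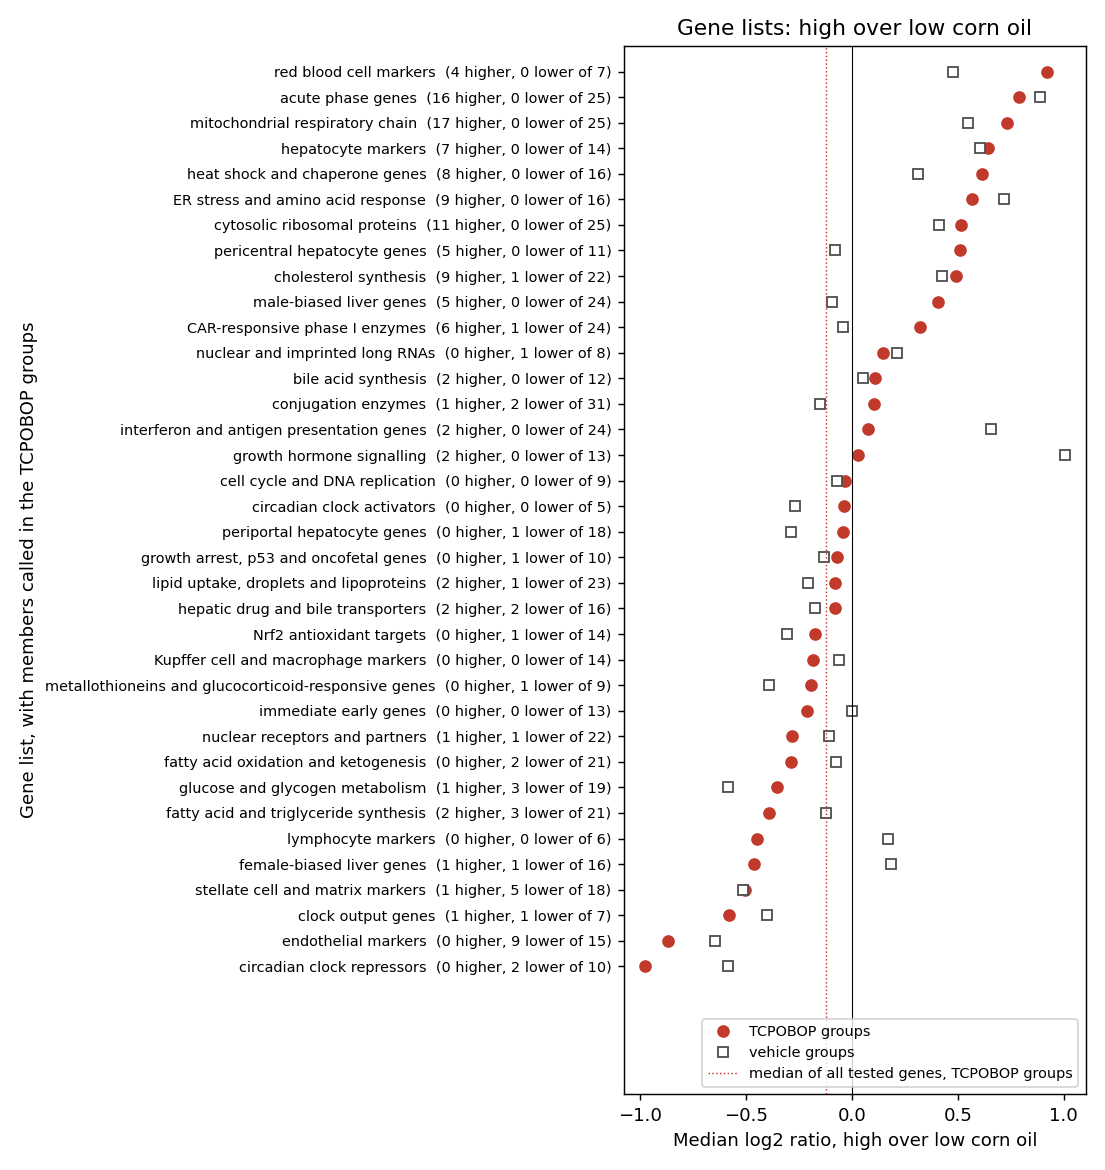
Median log2 ratio of FPKM + 0.1, high over low corn oil, of each gene list with at least 5 tested members (y axis) in the TCPOBOP groups (filled circles) and the vehicle groups (open squares), with the number of members called between the TCPOBOP groups. Acute phase genes stood at 0.79 and 0.89, endothelial markers at -0.87 and -0.65, and pericentral genes at 0.51 and -0.08, against a median of -0.12 over all tested genes.

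The repressors of the circadian clock had a low median without many calls. Of 10 tested, 2 were called lower and none higher, at a median of -0.98 with TCPOBOP and -0.59 with vehicle. Cry2, a core repressor, had 3.59 and 7.65 FPKM with TCPOBOP and 4.81 and 11.3 FPKM with vehicle (adjusted p = 0.000233 in the authors' deposited table), and Bhlhe40, a repressor also induced by hypoxia, had 11.4 and 21.7 FPKM with TCPOBOP. Dbp, an output gene with a steep daily rise, had 10.3 and 42.3 FPKM with TCPOBOP, 18.8 and 41.4 FPKM with vehicle, and 30.3 and 10.1 FPKM at 2 weeks (adjusted p = 0.121 in the authors' deposited table). Ciart had 0.577 and 3.00 FPKM and Per3 2.49 and 7.06 FPKM with TCPOBOP, and neither was called. Of the 5 clock activators none was called, with Arntl, which encodes BMAL1, at 4.14 and 3.16 FPKM. Of 7 clock output genes tested, 1 was called higher and 1 lower, at a median of -0.58, or -0.10 among members with at least 5 FPKM. Ccrn4l, the deadenylase nocturnin, was the one called higher, at 11.2 and 4.68 FPKM, whereas the vehicle groups had 8.47 and 11.4 FPKM. Hlf, a transcription factor of the same family as Dbp, was the one called lower, at 1.19 and 2.24 FPKM with TCPOBOP and 1.84 and 2.84 FPKM with vehicle (adjusted p = 0.0472 in the authors' deposited table). The labels give no hour of death for single mice, and its part in these values was not tested.

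Markers of endothelial cells were lower in the high-oil group. Of 18 listed, 15 were tested, 9 were called lower and none higher, at a median of -0.87 with TCPOBOP and -0.65 with vehicle. Kdr, the main receptor for vascular endothelial growth factor, had 7.44 and 17.3 FPKM with TCPOBOP, 9.10 and 15.2 FPKM with vehicle, and 11.6 and 10.6 FPKM at 2 weeks (adjusted p = 3.90e-05 in the authors' deposited table). Cdh5, the cadherin of endothelial junctions, had 5.42 and 12.0 FPKM with TCPOBOP and 5.77 and 10.7 FPKM with vehicle. The 2-week values of both genes lay between the high-oil groups and the low-oil groups of set G186. The order by oil, below, held for 11 of the 15 and the order by set, below, also for 11. The summed level of all listed markers was 198 and 325 FPKM with TCPOBOP, 209 and 320 FPKM with vehicle, and 250 and 229 FPKM in the 2-week TCPOBOP and vehicle groups. Genes as long as these, with a median span of 36.1 kb, had a lower median in general, which was -0.20 in their length class.

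Stellate cell and matrix markers had 5 of 18 tested members called lower and 1 higher, at a median of -0.51 in both pairs of groups. Rgs5, a pericyte regulator of G-protein signalling, had 2.14 and 6.50 FPKM, and Col4a1, a basement membrane collagen, had 4.10 and 9.06 FPKM with TCPOBOP. The member called higher was Timp1, a protease inhibitor that inflammation induces, at 1.34 and 0.420 FPKM with TCPOBOP and 0.938 and 0.159 FPKM with vehicle. None of the 14 tested Kupffer cell and macrophage markers was called (median -0.18), and Clec4f, which defines Kupffer cells, had 42.3 and 47.4 FPKM. None of 6 lymphocyte markers was called, and of 4 neutrophil markers 1 was called higher, S100a9, at 2.58 and 1.24 FPKM. Red blood cell markers had 4 of 7 called higher, all haemoglobin genes with near-identical copies, and 6 of the 7 followed the order by set, with a summed level of 124 and 76.9 FPKM with TCPOBOP, 92.5 and 73.7 FPKM with vehicle and 169 and 91.3 FPKM at 2 weeks. None of 3 cholangiocyte or 3 adipocyte markers was called, and Adipoq, which defines fat cells, was listed at 0 in both TCPOBOP groups. With 7.6% of all tested genes called higher and 6.34% lower, no call among so few markers does not show that a cell type was unchanged. The single tested pancreatic marker, Cela1, was called higher at 6.79 and 3.28 FPKM, while 5 of the 13 listed pancreatic genes were at 0 in every male group. The part of these cell types in the hepatic lists was not tested.

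The difference moved with gene length and with level. Over 5 equal classes of genomic span in the GENCODE M21 annotation of GRCm38, from shortest to longest, the median ratio with TCPOBOP was 0.09, -0.03, -0.10, -0.20 and -0.32. With vehicle it was 0.11, 0.07, 0.05, 0.01 and -0.08. The shortest class held 339 genes called higher and 63 called lower, whereas the longest class held 49 and 292. The median span was 8.87 kb for genes called higher, 46.3 kb for those called lower and 21.3 kb for all tested. Spearman's rho of span and ratio across 10673 genes was -0.29 with TCPOBOP and -0.16 with vehicle, and the rho of level and TCPOBOP ratio was 0.36, all as descriptions across genes. Over 5 classes of level in both TCPOBOP groups, from lowest to highest, the median TCPOBOP ratio was -0.34, -0.23, -0.13, -0.05 and 0.15. The lowest class held 43 genes called higher and 247 called lower, whereas the highest, of 2153 genes, held 489 and 51. Ribosomal protein and acute phase genes had a median span of 4.05 kb each, in the shortest class, and their median ratios of 0.51 and 0.79 lay above the 0.09 of that class. Respiratory chain genes had a median span of 7.21 kb, in the second class, and their median ratio of 0.73 lay above its -0.03. These lists were not compared with genes of like level. The part of length and of level in the calls was not tested.

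**Figure D4:**
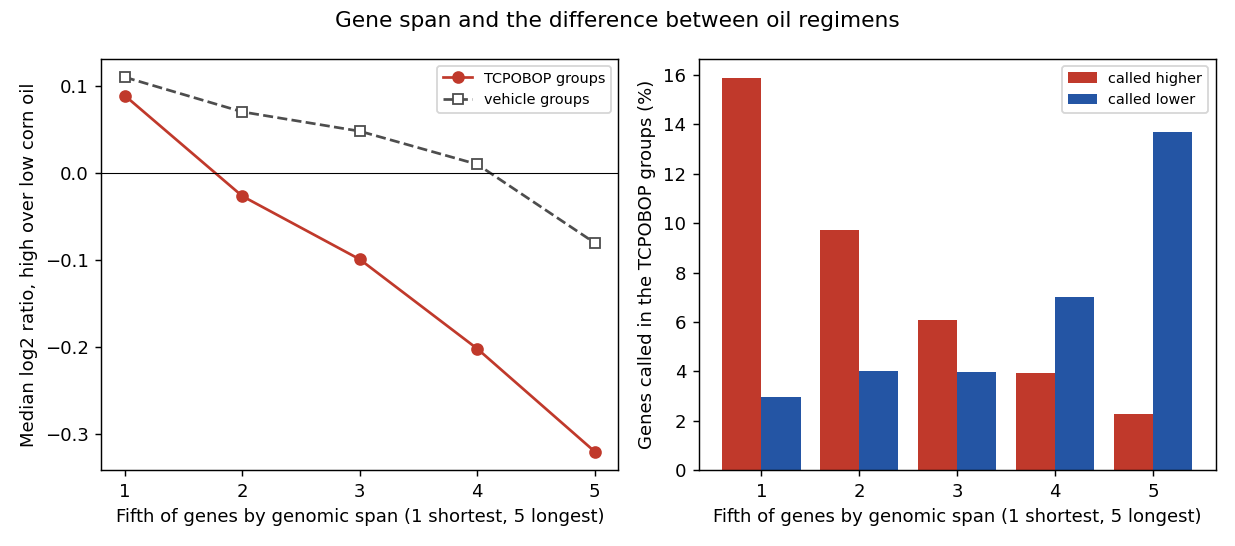
Left, the median log2 ratio, high over low corn oil, of 5 classes of genes by genomic span (x axis, class 1 shortest) in the TCPOBOP groups (circles) and the vehicle groups (squares). Right, the percent of genes in each class called higher or lower between the TCPOBOP groups; the share called higher falls from 15.9% in the shortest class to 2.30% in the longest, and the share called lower rises from 2.95% to 13.7%.

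The genes with the most extreme ratios outside these lists were mostly of low level or overlapped other genes. Mup15 stood at 39.3 and 0.0323 FPKM with TCPOBOP, against 1.50 and 0.213 FPKM with vehicle and 0.368 FPKM after 2 weeks of TCPOBOP, so the high-oil TCPOBOP group was alone in its level (adjusted p = 3.31e-07 in the authors' deposited table). D14Ertd670e stood at 22.9 FPKM in the high-oil TCPOBOP group, was listed at 0 in the low-oil TCPOBOP group and stood at 0.0362 FPKM in the high-oil vehicle group and at 0 in the other 3 male groups. Prss22, a tryptase-like serine protease, stood at 5.98 FPKM in the high-oil TCPOBOP group and at 11.6 and 7.66 FPKM in the 2-week groups. It was listed at 0 in the 8-week low-oil TCPOBOP group, the 8-week high-oil vehicle group and the low-oil vehicle group treated for 4 to 8 weeks. A pooled value of this kind can come from 1 mouse, which the table cannot show. The smallest p belonged to Zbed6, at 1.32 and 9.42 FPKM with TCPOBOP and 4.11 and 8.90 FPKM with vehicle (adjusted p = 4.90e-23 in the authors' deposited table). Zbed6 lies inside Zc3h11a on the same strand, so reads of the 2 genes cannot be told apart. Mrpl18, a mitochondrial ribosomal protein, had 46.8 and 8.90 FPKM with TCPOBOP and 48.1 and 13.6 FPKM with vehicle and overlaps Tcp1 on the opposite strand. Its 2-week levels of 44.6 and 49.7 FPKM lay close to those of the high-oil groups of the same set. Of 25 genes at the extremes looked up in GENCODE M21, 4 overlapped another protein-coding gene. Tnks, a poly-ADP-ribose polymerase, Mib1, a ubiquitin ligase of Notch signalling, and Gprin3 had no such overlap, with 0.481 and 1.94 FPKM, 0.477 and 2.14 FPKM, and 0.354 and 2.02 FPKM in the TCPOBOP groups.

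Some called genes differed between the oil regimens with TCPOBOP but not in the same direction with vehicle. The test of a difference between both contrasts needs values of single mice and was not made. Selenbp2, a selenium-binding protein, had 589 and 168 FPKM with TCPOBOP, 422 and 489 FPKM with vehicle, and 246 and 381 FPKM at 2 weeks (adjusted p = 1.16e-08 in the authors' deposited table). The 8-week low-oil TCPOBOP group was the lowest of the 6. Pnliprp1, a pancreatic lipase-related protein, had 50.9 and 18.5 FPKM with TCPOBOP and 17.2 FPKM after 2 weeks, and at most 0.182 FPKM in the male vehicle groups. Fndc5, the precursor of irisin, had 6.90 and 2.84 FPKM with TCPOBOP and 0.132 to 0.143 FPKM with vehicle. Clec2h had 1.46 and 8.84 FPKM with TCPOBOP, against 5.41 and 1.39 FPKM with vehicle. Kcnk1, a potassium channel, had 1.91 and 0.202 FPKM at 8 weeks and 1.86 FPKM after 2 weeks of TCPOBOP. In the vehicle groups Pnliprp1, Fndc5 and Kcnk1 stood near the pseudocount of 0.1 FPKM, so the sign of their vehicle ratios gives no direction.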

How the data were processed

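Polyadenylated RNA of liver nuclei was sequenced as stranded libraries, per the labels. The authors aligned reads with TopHat2 2.0.13 to mm9 and used featureCounts 1.4.6-p5 over RefSeq gene bodies, per the file headers and the submitters' processing notes. The deposited FPKM values are 1 pooled value per group combined over mice in an unstated way. The deposited fold is a signed score (the negative inverse below 1), and the p-value is the authors' deposited edgeR value, treated as adjusted. The 2 columns that repeat the values of both TCPOBOP groups were not used. No value of a single library was used, so depth, errors and refits could not be had. A gene was called at a deposited adjusted p under 0.05, its direction from the deposited fold. Among genes above 5 FPKM in both groups, the deposited log2 fold exceeded the log2 ratio by a median of 0.15 (0.0937 to 0.213), and the sign differed for none of the 1500 called genes. Ratios used a pseudocount of 0.1 FPKM and genes of at least 1 FPKM (pandas 2.3.3, numpy 2.4.6, with the calculation tested on simulated data). Named genes were the 12 highest and 12 lowest ratios and 8 smallest adjusted p among called genes, in each list the 5 smallest adjusted p and the highest level, and clock, CAR and sex-linked genes; small RNA genes (363 tested) were counted, not named. A gene that the rule selects is not reported here, though counts include it. Other list members and genes whose vehicle ratio has the other sign were picked with their values in view. The members and all 41 lists were chosen with earlier results of these data known. Gene spans came from GENCODE M21 for 99.2% of tested genes, and promoters from RefSeq on GRCm38.p6.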

Additional observations from a re-analysis of the deposited data

How the results depend on the processing

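With a minimum of 5 FPKM 241 genes were lower, 116 of them at least 2-fold. At an adjusted p under 0.01 the authors' deposited table had 426 genes higher and 394 lower. A pseudocount of 1 FPKM left 61 higher and 109 lower at 2-fold. By fold change in the authors' deposited table, 199 were higher at 2-fold, and with centred ratios 167. Other minimums, a pseudocount of 0.01 FPKM and leaving out small RNA genes kept every count within 1.5 times. Of 368 list medians under the alternatives 358 moved by under 0.2, and 34 single genes lost their call, all at an adjusted p under 0.01. Scaling the male groups to equal median FPKM, chosen after seeing the data, left 162 genes called higher above and 285 called lower below by oil, and 427 and 397 by set. No paired analysis was possible because the table holds pooled group values only, and leaving out single mice was not run for the same reason.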

Other observations

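Several groups without a place in the account above stood near the background between the TCPOBOP groups. That background was 7.6% called higher and 6.34% lower, and lists of few genes can hold no call at such shares. None of the 9 cell cycle genes tested, of 30 listed, was called between the TCPOBOP groups, with Cdc20, an activator of mitotic exit, at 2.67 and 2.02 FPKM in high and low oil, against 0.219 and 0.235 FPKM with vehicle. None of 13 immediate early genes was called, with the transcription factor gene Egr1 at 0.923 and 1.94 FPKM. Interferon and antigen presentation genes had 2 of 24 called higher, and their median log2 ratio was 0.07 with TCPOBOP and 0.66 with vehicle. The vehicle median lay above the 0.03 of all tested genes. B2m, the light chain of class I molecules, had 630 and 440 FPKM with TCPOBOP. Of 14 antioxidant targets of Nrf2, 1 was called lower, Gclc, which makes glutathione, at 35.9 and 69.4 FPKM. Trp53inp1, a p53 target, was the single called gene of 10 growth arrest genes, at 4.51 and 11.3 FPKM.

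Growth hormone signalling genes had a median of 0.03 with TCPOBOP and 1.00 with vehicle, and 2 of 13 were called higher. Cish, a rapid target of STAT5 and thus of growth hormone pulses, had 23.5 and 15.3 FPKM with TCPOBOP, but 32.3 and 1.07 FPKM with vehicle. Alas1, the first enzyme of haem synthesis, had 107 and 73.5 FPKM with TCPOBOP and 91.6 and 11.1 FPKM with vehicle. Neither was called between the TCPOBOP groups.

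The Y-linked genes Ddx3y, Eif2s3y and Uty were not called between these male groups, whereas Kdm5d was lower at 1.86 and 4.97 FPKM (adjusted p = 9.25e-07 in the authors' deposited table). Xist was at most 0.233 FPKM in any male group. Lars2 and Rn45s, whose annotated loci take reads of abundant ribosomal RNA in many libraries, had 153 and 38.1 FPKM and 855 and 431 FPKM with TCPOBOP, and were chosen after their values were seen.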
